A study of Mus musculus with 4 samples.

Results

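The 10 genes described here carry out base excision repair of oxidised DNA in the mouse: the DNA glycosylases Ogg1, Mutyh, Nthl1, Neil1, Neil2 and Neil3, the endonuclease Apex1, the strand-break sensor Parp1, the scaffold Xrcc1 and the polymerase Polb. They were chosen by name, and all 10 were found on the array among 16858 named genes. Probes were matched through their RefSeq accession, which gave 12 probes: 2 each for Ogg1 and Mutyh and 1 for each of the other 8 genes. Where a gene had 2 probes, the brighter one gives its value and the other is reported beside it.

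Total RNA was measured on 1 array for each of 4 groups of mouse skin: treated tail, control tail, treated back and control back. Treated skin received a cream of methyl aminolevulinate, from which cells make a light-absorbing porphyrin, then 2.5 h of darkness and red light (636 nm), and was sampled 48 h later. The light dose was 10 J/cm2 for tail skin and 2.5 J/cm2 for back skin. Animals treated on the back were shaved, the control skins are labelled as having no treatment, and whether control animals were shaved is not given in the sources used here. The design counts 3 animals per group, but it is not stated whether their RNA was pooled, and strain and age are not given in the sources used here. The labels name skin, whereas the extraction protocol speaks of back skin and tail epidermis. The light dose differed between the skins, so skin and dose cannot be told apart.

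With 1 array per group no difference had a replicate check and none was tested. Levels are log2 of the processed spot signal relative to the 75th percentile of the array, so a level of 0 is that percentile, and differences are on the same log2 scale. A difference of 2-fold, or 1 on the log2 scale, is called higher or lower as a description only. The scanner error given after each difference covers the spot and not the animals. The 75th percentile was 938 signal units on the treated tail array and 7409 on the control tail array, which was far brighter than the others, and 1269 on the treated back and 1950 on the control back array. Of the keratinocyte markers listed (Krt5, Krt14, Krt1, Krt10, Trp63, Dsp and Dsg3), 6 of 7 were on the array and all 6 were well above background on every array, with 4 or 5 of them saturated.

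Base excision repair removes single damaged bases, and oxidised guanine, which light-driven oxygen species make readily, is its best-known substrate. A glycosylase cuts the damaged base from the sugar, an endonuclease opens the strand at the empty site, and a polymerase and a ligase fill and seal the gap. In skin, where light and inflammation both oxidise DNA, the pathway works in dividing and in resting cells alike.

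The first comparison asked how these genes differed in tail skin 48 h after treatment. In the treated tail the glycosylase Ogg1 was 1.91-fold higher and the sensor Parp1 was lower by 2.22-fold, while 7 other members differed by less than 2-fold and Polb, saturated in the control tail, had only a bound. None of the 10 was called higher and 1 was called lower, against 26.7% and 6.74% of all 12859 genes with a value, or 33.4% either way. The median of the members was -0.15, beside 0.32 for all genes. With spike-in scaling Ogg1 was lower instead, at -1.12. In bulk tissue, fewer cells of a type and less RNA per cell cannot be told apart.

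Ogg1 excises 8-oxoguanine paired with cytosine. Its brighter probe read 1843 signal units in the treated tail and 7628 in the control tail, which are scaled levels of 0.98 and 0.042. The difference was 0.93 ± 0.20 (scanner error), and the second probe gave 0.75. Both probes were thus higher in the treated tail. Mutyh removes adenine misincorporated opposite 8-oxoguanine, and its levels were -3.80 in the treated tail and -3.19 in the control tail, a difference of -0.60 ± 0.21. Its second probe differed by -0.71, with a signal of 6.40 that was not well above background in the treated tail.

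Nthl1, a glycosylase for oxidised pyrimidines, had levels of -3.12 in the treated tail and -3.65 in the control tail, a difference of 0.53 ± 0.21. The Nei-like glycosylases also act on oxidised pyrimidines and on further oxidation products of guanine. Neil1 had levels of -2.46 in the treated tail and -2.78 in the control tail, a difference of 0.32 ± 0.21. Neil3, which is known for its expression in dividing cells, had levels of -1.38 and -1.11 in treated and control tail, a difference of -0.26 ± 0.20. Neil2 differed by 0.97 ± 0.23. The Neil2 value rests on signals of 36.8 in the treated tail and 149 in the control tail, where the lowest signals well above background were 10.3 and 22.0.

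Of the later steps, Apex1, which cuts the strand at a site that has lost its base, had levels of 1.94 in the treated tail and 2.26 in the control tail, a difference of -0.32 ± 0.20. Parp1, which binds strand breaks and marks them with poly-ADP-ribose, had levels of -1.19 in the treated tail and -0.046 in the control tail. Its signal was 410 in the treated tail and 7177 in the control tail, on arrays of very different brightness. The scaled difference of -1.15 ± 0.20 was the only one past 2-fold among the 9 measured members, and with normexp background correction it was -0.51. Xrcc1, the scaffold that gathers the repair proteins at the break, had levels of 2.03 in the treated tail and 2.21 in the control tail, a difference of -0.17 ± 0.20. Polb, which fills the gap of a single base, was saturated in the control tail and could only be given as at least 1.09-fold lower in the treated tail, with no limit on how much lower.

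Marker genes of other cells also differed on the same pair of tail arrays. Neutrophil markers were called higher in 4 of 5 genes with a value, with summed scaled signals of 140 in the treated tail and 8.44 in the control tail, where 1 is the 75th percentile of the array and 5 of 7 markers were well above background on each array. Of these, 2 were saturated in the treated tail, so that sum is too low. All 3 genes of red blood cells were called higher, with sums of 12.6 and 0.79. Adipocyte markers were called higher in 4 of 4, with sums of 27.2 in the treated tail and 5.93 in the control tail. Skeletal muscle markers were called higher in 4 of 6, fibroblast markers in 3 of 5, and macrophage and T cell markers in 2 of 4 each. These calls rest on the scaling: 26.7% of all genes were called higher, but 0.93% with spike-ins. Unscaled sums of these 5 lists were lower in the treated tail (adipocyte 25468 against 43931), whereas neutrophil and red blood cell sums were higher. Of 11 mitosis genes 1 was called higher and 1 lower, with a median of 0.13, and of 12 S phase genes none, with a median of -0.12. The part of these cells in the differences of the repair genes was not tested.

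The directions in the tail depended on how the arrays were scaled. With spike-in scaling all 10 members were lower in the treated tail, with a median of -2.20, but the median of all genes was then -1.63 in place of 0.32. Relative to the median of all genes, Ogg1 was 0.62 higher with the 75th percentile and 0.50 higher with the spike-ins, and Parp1 was at -1.47 and -1.58. With normexp background correction Mutyh and Neil3 changed sign, at 2.05 and 0.47, and the median of the members was 0.54.

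**Figure D1:**
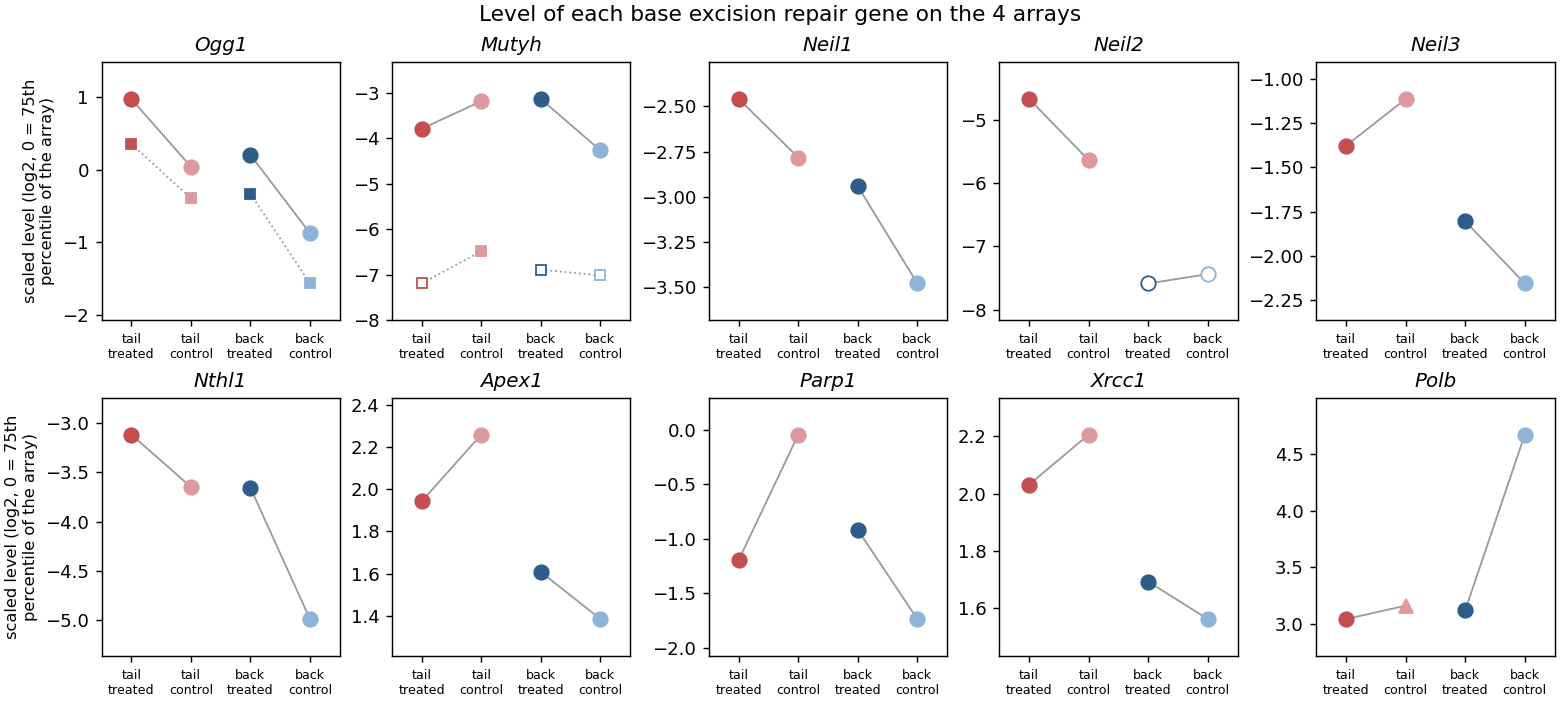
Scaled level (log2, 0 is the 75th percentile of the array) of each gene on the treated tail, control tail, treated back and control back arrays, 1 array each, with a separate vertical scale per gene. Circles are the probe used, squares a second probe, open symbols were not well above background and the triangle was saturated. Ogg1 was higher in treated than in control skin at both sites with both probes, a direction that spike-in scaling turned in the tail, and Polb had a level of 4.67 in the control back, its highest unsaturated value.

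Back skin after treatment was compared in the same way. Here 3 glycosylases were called higher in the treated skin: Nthl1 by 2.51-fold, Mutyh by 2.19-fold and Ogg1 by 2.11-fold. The polymerase Polb was 2.92-fold lower. Of 9 members with a value, 8 differed upwards and 1 downwards, with a median of 0.54, beside a median of -0.019 and 48.9% upward differences among all genes. The calls of 3 higher and 1 lower stand against 13.3% and 12.8% of 13461 genes, and the 4 calls together against 26.1%. With spike-in scaling Neil3, Apex1 and Xrcc1 were lower instead, at -0.10, -0.23 and -0.32, but the median of all genes was then -0.45, and relative to it they were at 0.35, 0.22 and 0.13.

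The promoters of the 3 glycosylase genes called higher in the treated back are shown here, because these genes were all higher there. Each runs from 250 bases before to 50 bases after the start of the gene, from RefSeq on build GRCm38.p6, on the strand of the gene. Capitals mark matches, on either strand, to the GC box GGGCGG or the CCAAT box CCAAT, which appear as CCGCCC or ATTGG where they lie on the other strand. Ogg1 lies at chr6:113326726-113327025, Nthl1 at chr17:24632432-24632731 and Mutyh at chr4:116807484-116807783, all on the plus strand.
Ogg1: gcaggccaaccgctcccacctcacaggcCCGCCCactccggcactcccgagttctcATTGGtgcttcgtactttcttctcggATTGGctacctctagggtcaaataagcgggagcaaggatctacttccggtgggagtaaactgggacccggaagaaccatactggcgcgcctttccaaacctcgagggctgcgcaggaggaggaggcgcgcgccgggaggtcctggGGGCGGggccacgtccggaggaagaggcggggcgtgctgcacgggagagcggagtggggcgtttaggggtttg
Nthl1: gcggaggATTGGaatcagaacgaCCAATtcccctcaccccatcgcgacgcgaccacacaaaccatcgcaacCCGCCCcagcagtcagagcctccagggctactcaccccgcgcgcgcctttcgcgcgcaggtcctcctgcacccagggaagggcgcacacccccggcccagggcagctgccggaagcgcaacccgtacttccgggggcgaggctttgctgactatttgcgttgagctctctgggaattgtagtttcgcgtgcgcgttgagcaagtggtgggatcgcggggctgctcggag
Mutyh: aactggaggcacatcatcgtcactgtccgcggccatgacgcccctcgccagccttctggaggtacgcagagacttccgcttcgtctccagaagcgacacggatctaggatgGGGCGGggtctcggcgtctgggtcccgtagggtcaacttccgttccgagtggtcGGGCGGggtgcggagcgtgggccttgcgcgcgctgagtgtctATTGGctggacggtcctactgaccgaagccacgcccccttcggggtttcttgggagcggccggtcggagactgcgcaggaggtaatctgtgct

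The GC content of these windows was 64.7% for Ogg1, 65.3% for Nthl1 and 65.0% for Mutyh, above the upper quartile of 61.7% over 32851 promoter windows. Each of them held both boxes, as did the window of Apex1, which was not called and had 63.3% GC. The window of Parp1, also not called, had 62.0% GC and only GC boxes. A second Mutyh window in the table had 43.7% GC, below the lower quartile of 45.7%, and no GC box. Of the 9 member windows in the table, which cover 8 genes with a second window for Mutyh, 6 held a GC box and 6 a CCAAT box, against 35.7% and 37.4% of all windows. The E2F motifs TTCCCGC and TTGGCGC, found in 4.60% and 2.45% of all windows, were in 0 and 1 of the 9, the 1 being Apex1. The antioxidant response core TGACNNNGC, in 12.4% of all windows, was in 1, that of Neil1. No base belonged to matches of 2 motifs. These letters describe the windows and do not show that a factor binds there.

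In the treated back Ogg1 read 1461 signal units, against 1062 in the control back, with scaled levels of 0.20 and -0.88. The difference was 1.08 ± 0.20, and the second probe gave 1.24. The Mutyh probe had levels of -3.14 in the treated back and -4.27 in the control back, a difference of 1.13 ± 0.22. The second Mutyh probe gave 0.13, but was not well above background on either back array. Nthl1 had levels of -3.66 in the treated back and -4.99 in the control back, a difference of 1.33 ± 0.24 from signals of 101 and 61.6. All 3 differences stayed positive under every alternative tried, but none stayed past 2-fold throughout. They were 0.91, 0.85 and 0.90 for Ogg1, Mutyh and Nthl1 with normexp background correction, and 0.63, 0.68 and 0.88 with spike-in scaling. The mean of both probes put Mutyh at 0.63.

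The Nei-like glycosylases differed less in the back. Neil1 had levels of -2.94 in the treated back and -3.48 in the control back, a difference of 0.54 ± 0.21. Neil3 had levels of -1.81 in the treated back and -2.16 in the control back, a difference of 0.35 ± 0.21. Neil2 was not well above background on either back array, with signals of 6.61 in the treated back and 11.3 in the control back, so it had no value there.

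Parp1 had levels of -0.92 in the treated back and -1.73 in the control back, a difference of 0.82 ± 0.20, or 1.76-fold. Apex1 had levels of 1.61 in the treated back and 1.38 in the control back, a difference of 0.22 ± 0.20, and Xrcc1 had levels of 1.69 and 1.56, a difference of 0.13 ± 0.20. For both the difference was about the size of the scanner error or below it, an error nearly the same for all bright members. Polb stood apart from the other members. It read 11057 signal units in the treated back and 49583 in the control back, with levels of 3.12 and 4.67, a difference of -1.55 ± 0.20. Its level in the treated tail was 3.05, so the control back was the high one of the 3 arrays on which it was not saturated. The difference was past 2-fold under each alternative except quantile normalization, which gave -0.99.

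On the same pair of back arrays, the lists for dividing cells were also higher in the treated back. All 11 mitosis genes on the array were called higher, with a median of 1.64, as were 8 of 12 S phase genes with 1 lower and a median of 1.47. Over all genes 13.3% were called higher and 12.8% lower. For Cdk1 the probe used gave 1.67 and its second probe -0.073, while further probes of other mitosis genes gave 1.16 to 2.10. The summed scaled signal of the mitosis list was 39.1 in the treated back and 14.8 in the control back, and that of the S phase list was 68.7 and 30.2. Neutrophil markers were called higher in 4 of 5 genes with a value, with sums of 104 in the treated back and 40.9 in the control back that saturation of 2 and 1 markers makes too low, and macrophage markers in 3 of 5, with sums of 6.71 and 2.39. T cell markers were lower in 3 of 4, with sums of 0.27 and 3.15 and all 4 well above background on both arrays. Hair shaft genes were lower in 5 of 5, with sums of 1.01 in the treated back, where 4 were well above background, and 19.0 in the control back. The part of dividing, infiltrating or hair cells in the differences of the repair genes was not tested.

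**Figure D2:**
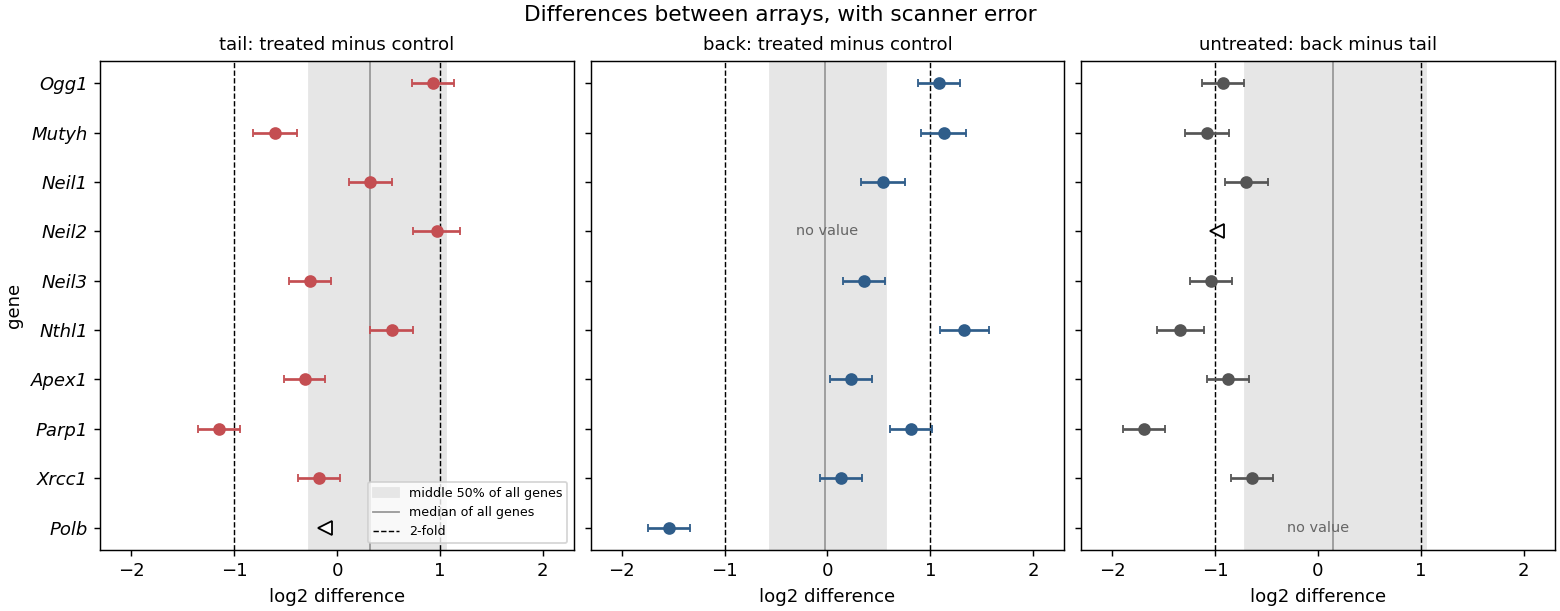
Log2 difference of each gene between 2 arrays: treated minus control tail, treated minus control back, and control back minus control tail. Bars are the scanner error of 1 array pair, open triangles are bounds, the grey band holds the middle 50% of all genes, and dashed lines mark 2-fold. Ogg1, Mutyh and Nthl1 lie beyond 1 in the back, Polb lies at -1.55, and all 9 values between the untreated skins are negative.

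For the 8 members measured on all 4 arrays, the tail difference was subtracted from the back difference. This left out Neil2, not well above background on either back array, and Polb, saturated in the control tail. With no filter, their signals taken as read, these 2 went the other way, at -1.11 and -1.43. The back difference exceeded the tail difference in all 8, with a median of 0.58, against a median of -0.19 and 43.8% positive values over 11279 genes. In 2 of the 8 the gap was past 2-fold, against 15.7% of all genes, in none was it past 2-fold the other way, against 28.5%, and 44.2% of all genes were past 2-fold either way. These were Parp1, at 1.96 ± 0.29, and Mutyh, at 1.73 ± 0.30, both higher in the treated back and lower in the treated tail, although normexp background correction put Mutyh higher in the tail too. Ogg1 differed by 0.15 ± 0.29 between the skins, less than its scanner error. Neil1 was at 0.21 ± 0.29, Xrcc1 at 0.30 ± 0.29, Apex1 at 0.54 ± 0.29, Neil3 at 0.61 ± 0.29 and Nthl1 at 0.80 ± 0.31. With normexp background correction only 4 of the 8 were positive, Mutyh was among the negative ones, and the median was 0.093. The gap equals the back minus tail difference of the treated skins less that of the untreated skins. It is thus not separate from the comparisons that follow. Member medians there were -0.38 between treated skins, beside -0.26 for all genes, and -0.98 between untreated skins, beside 0.15. A positive gap was not particular to the members. It was found in all 11 mitosis genes, with a median of 1.47. It was also found in 10 of 11 S phase genes with a value, with a median of 1.39. The part of dividing cells in the gap of the members was not tested.

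The third comparison set untreated back skin against untreated tail skin. It shares the control tail array with the first comparison and the control back array with the second. All 9 members with a value were lower in the back, with a median of -0.98 beside 0.15 for all genes, and 54.3% of all genes were higher. In the back 4 members were called lower and none higher, against 18.1% and 26.4% of 12814 genes, or 44.5% either way. Parp1 was 3.22-fold lower, at -1.69 ± 0.20, and Nthl1, Mutyh and Neil3 differed by -1.34 ± 0.23, -1.08 ± 0.21 and -1.04 ± 0.20. Ogg1 was at -0.92 ± 0.20, with -1.17 for the second probe. Apex1, Neil1 and Xrcc1 were at -0.87 ± 0.20, -0.70 ± 0.21 and -0.64 ± 0.20. Neil2 was at least 1.97-fold lower, being dim in the control back. Polb, saturated in the control tail, had no value. None of these 9 changed sign under the alternatives run on this pair of arrays, whereas Polb was positive with no filter, its saturated signal taken as read, and at -0.78 after quantile normalization. T cell and macrophage markers were higher in the back in 4 of 4 genes each. Fibroblast markers were higher in 5 of 6, while the other 1, Dcn, was lower at -3.45. Melanocyte markers were lower in the back in 3 of 3, with sums of 0.57 in the control back and 8.02 in the control tail, and all 5 hair shaft genes were saturated in the tail. The lists for dividing cells were lower in the back as well. Of 11 mitosis genes 4 were called lower and none higher, with a median of -0.76. Of 12 S phase genes 3 were called lower and 1 higher, with a median of -0.54. The part of all these cells in the differences was not tested.

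Treated back was also set against treated tail, a pair chosen after the values were seen because it leaves out the bright control tail array. There 7 of 10 members were lower in the back and 3 higher, with a median of -0.38 beside -0.26 for all genes. Only Neil2 was called, as at least 2-fold lower in the back, against 21.4% of 14129 genes lower and 15.4% higher. Ogg1 differed by -0.77 ± 0.20, while Mutyh and Parp1 were at 0.65 ± 0.21 and 0.27 ± 0.20. Mutyh and Parp1, both lower in untreated back than in untreated tail, were thus higher in treated back than in treated tail.

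Further genes of the pathway were read from lists. The shares of all genes called higher and lower were 26.7% and 6.74% in the tail and 13.3% and 12.8% in the back. Between the untreated skins they were 26.4% higher and 18.1% lower in the back. Among 10 other glycosylases and end-processing enzymes, 8 had a value in the tail and none was called, with a median of 0.42. In the back 2 of 9 were called higher, with none lower and a median of 0.68: the endonuclease Apex2 at 1.18 ± 0.20, whose second probe gave 0.21, and Mbd4, which removes thymine and uracil from mismatches, at 1.07 ± 0.21. Between the untreated skins only the uracil glycosylase Smug1 was called, lower in the back at -1.45 ± 0.21.

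Among 11 enzymes of synthesis, ligation and long-patch repair, 5 were called higher in the treated back, none was lower, and the median was 0.79. They were the polymerase subunits Pole at 1.92 ± 0.20, Pole2 at 1.52 ± 0.20 and Pold1 at 1.07 ± 0.20, the ligase Lig1 at 1.40 ± 0.20 and the polymerase Poll at 1.07 ± 0.21. The second probes of Pold1 and Poll gave 1.57 and 1.24. All but Poll also serve DNA replication. Lig3, the ligase that partners Xrcc1, was at -0.75 ± 0.20, with -0.41 for its second probe. In the treated tail only Pole2 was called, lower at -1.29 ± 0.20, and the median was -0.40. Between the untreated skins 5 of 10 were lower in the back, with a median of -0.97, and the lowest were the polymerase subunit Pold2 at -2.21 and Poll at -1.83. Over the 10 of these genes measured on all 4 arrays, the back difference exceeded the tail difference in 10, with a median gap of 1.20. It did so in 5 of 8 of the other glycosylases and end-processing enzymes, with a median of 0.32, and in 3 of 8 of the genes for poly-ADP-ribose and nucleotides described next, with a median of -0.10.

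Of 8 genes for poly-ADP-ribose and for cleaning oxidised nucleotides, none was called in the back. Parp2, another break sensor, was at -0.98 ± 0.20 in the tail and 0.94 ± 0.20 in the back, where Parp1 was at -1.15 and 0.82, and its second probe gave -1.19 and 1.03. Nudt1, which destroys oxidised guanine nucleotides before they enter DNA, was at 0.90 ± 0.20 in the tail and 0.78 ± 0.20 in the back. Parp3 was the only one called in the tail, 3.00 ± 0.21 higher, from signals of 126 in the treated tail and 124 in the control tail. With such signals the difference is nearly all the scaling of this pair of arrays, which adds 2.98. In the untreated back 4 of the 8 were called lower than in the untreated tail and 1 higher, with a median of -0.90. Those lower were Nudt18 at -2.23, Parp2 at -1.80, Nudt1 at -1.46 and Adprhl2 at -1.26. The second probe of Parp2 gave -1.98, whereas that of Nudt18 gave 1.16. The gene called higher was Parp3, at 1.38.

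**Figure D3:**
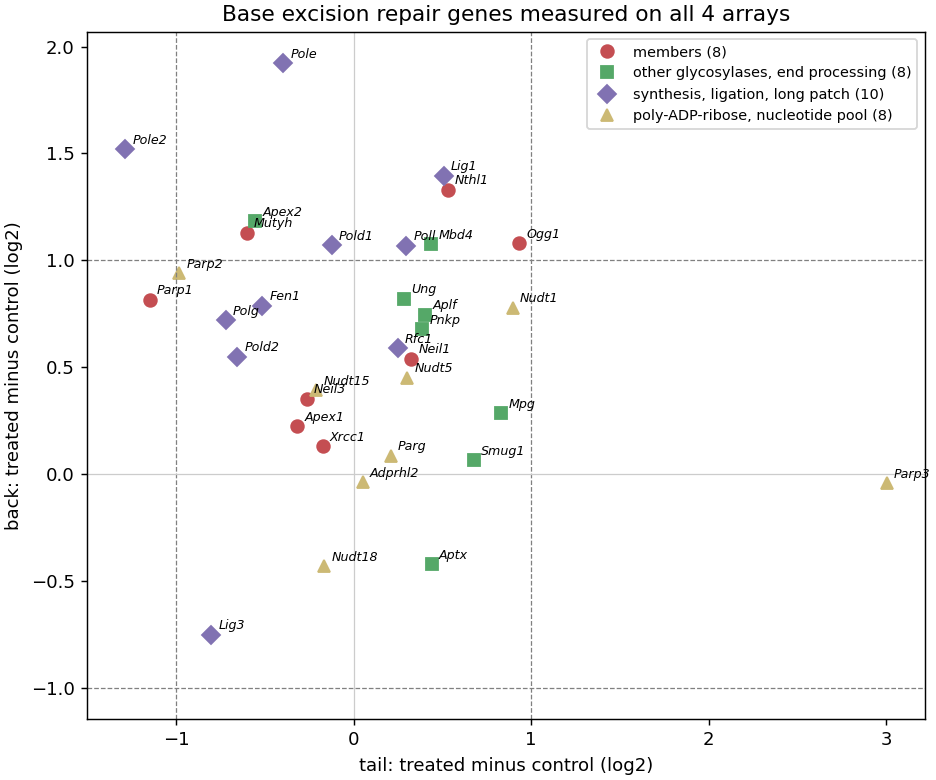
Log2 difference of treated minus control tail (horizontal) against treated minus control back (vertical) for base excision repair genes measured on all 4 arrays, 1 point per gene, with dashed lines at 2-fold. The members are red circles and the other lists have the symbols of the legend. Parp1 and Parp2 lie together at the upper left, and Ogg1 lies near 1 on both axes, while with spike-in scaling its tail value was -1.12.

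**Figure D4:**
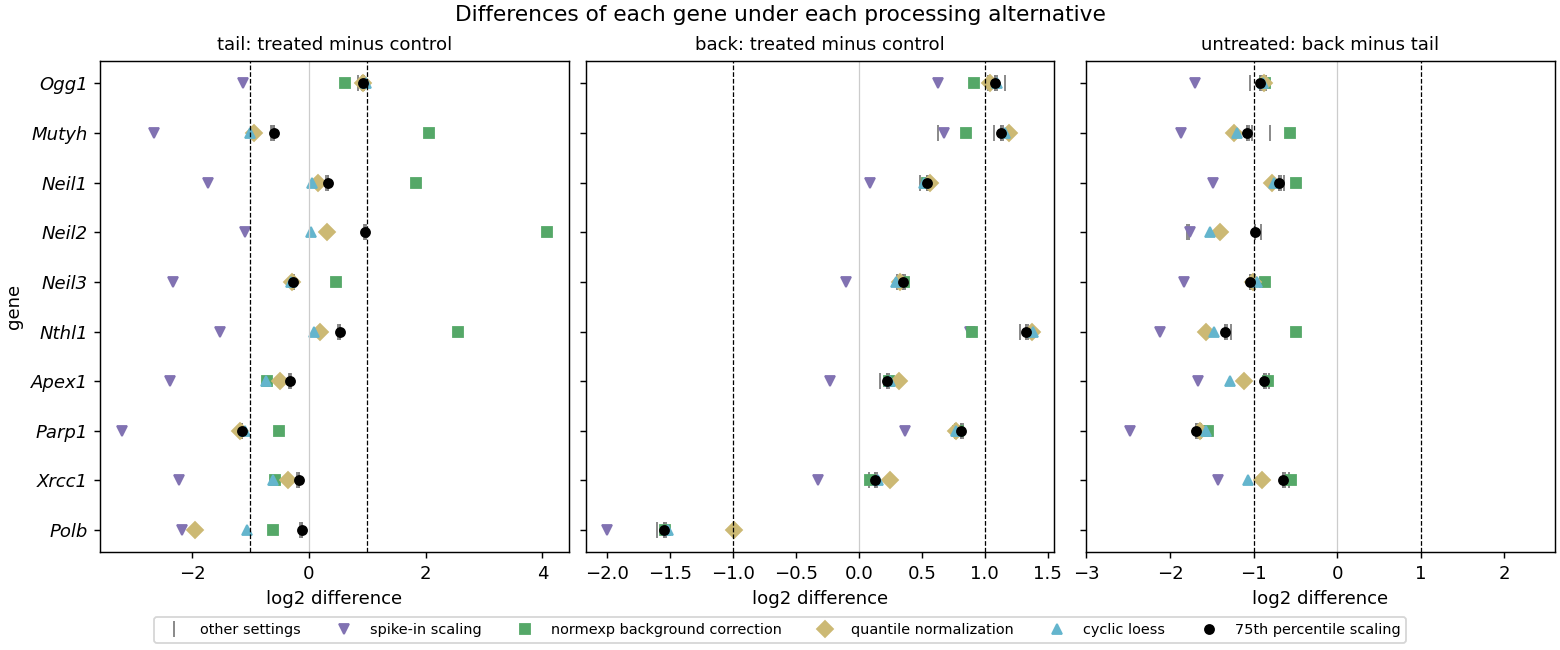
Log2 difference of each gene under every processing alternative, for the 3 comparisons, with 1 point per alternative and dashed lines at 2-fold. In the back Ogg1, Mutyh and Nthl1 stay above 0 throughout and Polb stays below it, at -0.99 after quantile normalization. In the tail spike-in scaling puts all 10 genes below 0 and normexp background correction puts Neil2 at 4.08.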

How the data were processed

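One-colour Agilent arrays measured Cy3-labelled RNA, made from 200 ng per sample per the labels' protocols, from 4 groups with 1 array each on 1 slide, so the place on the slide and the group coincide. The deposited signals are spot intensities corrected for background by Feature Extraction 10.5.1.1, per the file headers, while the submitters' processing notes name version 10.7. These signals were not normalized between arrays. The authors' deposited value table is on a log2 scale, centred on each probe's median over the arrays. Up to a constant, its differences between arrays lay within 0.001 of those from the signals for 99.7% of probes, which settles its scale and direction. The constants were 2.99 for the tail, 0.63 for the back and 1.95 for the untreated skins. Those of the 75th percentile were 2.98, 0.62 and 1.93, so as an alternative the table nearly repeats the main scaling. Its column medians were 0.099 for tail treated, -0.28 for tail control, 0.084 for back treated and -0.031 for back control.

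Signals were divided by the array's 75th percentile over non-control spots, outlier spots were left out and repeated spots averaged. RefSeq accessions (assembly GRCm38.p6) named 24367 of 41174 probes. The array files name the older build mm8. A gene dim or saturated on 1 array of a pair got a bound where its signals gave one in that direction and otherwise no value, and one dim or saturated on both got none. For a dim gene the bound used its own signal or, if higher, the array's weakest signal well above background. Scanner error came from the deposited error of each spot signal. Its lowest value over the members was 0.204 and its median 0.204. It was thus nearly the same for all bright members and tells little of single genes. The number of arrays limits the precision. The computation of differences was tested on simulated data, which says nothing of replicate error. Python 3.11.15, pandas 2.3.3 and limma 3.58.1 were used.

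All members were named, and of the other lists those called at 2-fold, at most 4 per list and comparison. Poll, Lig3, Parp2, Nudt1 and Cdk1 were named after their values were seen. One gene of the other repair list is not reported here. Members and lists were chosen with earlier results of these data known. Alternatives were normexp with an offset of 50, quantile normalization, cyclic loess, median and spike-in scaling, measured genes only, no filter, a signal of at least 200, the mean of probes, outlier spots kept, the value table and a 1.5-fold call.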

Additional observations from a re-analysis of the deposited data

How the results depend on the processing

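No paired analysis was possible because each group had 1 array. Of 10 members 1 was called in the tail, but 4 with normexp background correction (all higher), 2 after quantile normalization, 3 after cyclic loess and 10 with spike-in scaling (all lower in these 3), and 4 with a 1.5-fold call (2 higher, 2 lower). The tail median of -0.15 became 0.54 with normexp and -2.20 with spike-ins. In the back, 4 members were called, but 1 with normexp, 1 with spike-ins and 2 with a signal of at least 200, which removed 3 members. The back median of 0.54 became 0.087 with spike-ins. Between untreated skins 4 were called, but 1 with normexp, 2 with a signal of at least 200, 9 with spike-ins and 9 with a 1.5-fold call, and the median of -0.98 became -1.76 with spike-ins. The treated arrays in place of the controls, chosen after seeing the data, gave 1 call and -0.38, with Mutyh and Parp1 turned positive. The median gap between responses, 0.58, became 0.093 with normexp and 2.18 with spike-ins. The cause was not tested. The other 62 recomputed counts and medians stayed within 1.5 times or 1.96 scanner errors. Of the recomputed values of single members, 247 stayed within 1.96 scanner errors and 47 did not. Many of the 247 could not move: measured genes only, no filter and a signal of at least 200 select genes and leave a measured value as it is. On the arrays of the 3 comparisons no measured member past 2-fold changed sign, although with normexp the gap between responses of Mutyh, 1.73, turned negative. Tail values under 2-fold turned past it the other way (Mutyh 2.05 with normexp, Ogg1 -1.12, Neil1 -1.73, Neil2 -1.09 and Nthl1 -1.52 with spike-ins). The share of higher calls in the tail was 79.8%, 54.6% after cyclic loess, 59.1% after quantile normalization, 91.8% with normexp and 1.28% with spike-ins, in the back 51.1% and 20.8% with spike-ins, and between untreated skins 59.3%, 47.7% after cyclic loess, 46.9% after quantile normalization, 70.1% with normexp and 22.8% with spike-ins. Low signals limit Neil2, Nthl1 and Mutyh.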

Other observations

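Of 27 genes for nucleotide excision, mismatch, end-joining and recombination repair, 4 were called higher in the treated back, none was lower, and the median was 0.19. Over all genes 13.3% were called higher there and 12.8% lower, so the higher calls were near the general share. The genes of this list reported here were Brca2, a protein of break repair, at 1.47, the mismatch protein Pms2 at 1.08 and the end-joining protein Xrcc5 at 1.04. In the treated tail 2 were lower and none higher, against 6.74% and 26.7% of all genes. They were the damage sensor Ddb2 at -1.09 and the kinase Prkdc at -1.08, and the median of the list was -0.081. Between the untreated skins 14 were lower in the back and 2 higher, against 18.1% and 26.4% of all genes, with a median of -1.02.

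Of the 8 members with a promoter window, 4 have in GRCm38.p6 another coding gene within 500 bases upstream of their start. Neil2 and Polb had no window, so nothing is said of them here. These neighbours of the 4 genes were looked up after the values were seen. Toe1, beside Mutyh, differed by 1.73 in the treated back and 0.22 in the treated tail, where Mutyh was at 1.13 and -0.60. Tsc2, beside Nthl1, differed by -0.046 and 0.047, where Nthl1 was at 1.33 and 0.53. Osgep, beside Apex1, was at -0.44 and -0.059, where Apex1 was at 0.22 and -0.32. Pinlyp, beside Xrcc1, was at -0.71 in the back and had no value in the tail.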
